A study of Mus musculus with 2 samples.

Results

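Smooth muscle contractile and myofibroblast genes were represented by 10 genes, *Cnn1*, *Cnn2*, *Tagln*, *Mylk*, *Acta2*, *Actg2*, *Myh11*, *Cald1*, *Smtn* and *Tpm2*, of the 37073 gene names on the microarray. Their members are all non-control probes that carry 1 of these gene names, 27 probes in all. The group was chosen by measured values, because *Cnn1*, *Tagln* and *Mylk* were higher after knockdown of *Ppp2r5d* on these same arrays. The fold changes below are therefore a description of these arrays, and no test was run on them.

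MCMs are mouse cardiomyocytes, bought as cultured cells and passaged before use. One culture received a negative control siRNA, siRNA-NC, and the other siRNA-*Ppp2r5d*, which targets the B′ delta regulatory subunit of protein phosphatase 2A, both with Lipofectamine RNAiMAX. Glucose-free medium replaced the culture medium of both at 48 h and RNA was taken 64 h after transfection, so the control also carries the transfection and the loss of glucose. The labels of both samples name no ISO treatment. Each RNA was labelled with 1 dye and hybridized to 1 array, which leaves no replicate and no spread between cultures, so no p-value or SD between cultures is given. What the siRNA did cannot be told apart from other ways in which these 2 cultures differed.

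The genes work together in the contractile apparatus of smooth muscle. *Acta2* and *Actg2* encode the smooth muscle actins, *Myh11* the smooth muscle myosin heavy chain and *Tpm2* a tropomyosin that lies along the actin filament. Myosin light chain kinase, the product of *Mylk*, switches the myosin on by phosphorylating its light chain, while calponins (*Cnn1*, *Cnn2*), caldesmon (*Cald1*), transgelin (*Tagln*) and smoothelin (*Smtn*) bind actin. Many of these genes are driven by serum response factor (SRF) with its coactivators myocardin and the myocardin-related transcription factors (MRTFs), through a DNA element called the CArG box. Several of them are also switched on in fibroblasts that become myofibroblasts and in the embryonic heart.

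On the arrays, *Cnn1* stood at 5.32-fold the control level and *Tagln* at 1.80-fold. Of the 3 *Mylk* probes measured on both arrays, 2 were higher and 1 lower. The other 2 *Mylk* probes were above background on 1 array only, which fixed their direction. The remaining 7 genes lay within 0.5 of 0 on the log2 scale in either direction, including *Acta2* and *Actg2*, whose log2 fold changes were -0.020 and 0.010. *Myh11* was not well above background at any of its 3 probes for the RefSeq transcripts. A probe was called well above background as the scanner software marked it on that array.

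Each array probe is a strand of 60 bases, and the sequences of the probes on which the *Cnn1*, *Tagln*, *Mylk* and *Acta2* results turn are given here to show which part of each transcript was read. Probes whose bases encode a known stretch of the protein are shown whole and the others by their first 30 bases, 5′ to 3′, with no base set in capitals. Which exon or untranslated region the annotation gives each probe was not analysed here. The coordinates are those of mouse genome build mm9 in the scanner files.
Cnn1, NM_009922 base 486, chr9:21909945-21910166, plus strand: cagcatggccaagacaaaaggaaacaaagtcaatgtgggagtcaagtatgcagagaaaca
Cnn1, NM_009922 base 1379, chr9:21913058-21913117, plus strand: acacacgcattttggttttgcagtgactgg
Tagln, NM_011526 base 1140, chr9:45738097-45738156, minus strand: ctttgaaggagacccagcccagcctctaca
Mylk, NM_139300 base 5201, chr16:34986620-34986679, plus strand: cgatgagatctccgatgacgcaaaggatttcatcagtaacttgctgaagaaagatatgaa
Mylk, NM_139300 base 5543, chr16:34996839-34996898, plus strand: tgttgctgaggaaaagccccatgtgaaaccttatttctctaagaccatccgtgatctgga
Mylk, AK044527 base 1206, chr16:34953958-34954017, plus strand: gcaagagaattgcaagatcaaggccagccc
Acta2, NM_007392 base 335, chr19:34322995-34326249, minus strand: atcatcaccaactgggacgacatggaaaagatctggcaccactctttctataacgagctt
The *Cnn1* probe at base 486 covers 222 bases of the genome and the *Acta2* probe 3255 bases, more than the 60 bases of the probe, so each crosses a splice junction. The *Mylk* probe at base 5543 lies in the 3′ part of the gene that also encodes telokin, a short protein made from the same locus. It cannot tell the kinase transcript from that of telokin. Whether the probe at base 6677, farther 3′ on the same transcript, can do so was not analysed. The longest run of bases that any *Acta2* or *Actg2* probe shared with a probe of another actin gene was 8 bases. Only probes were compared, and not the transcripts, so this does not measure how well a probe binds the transcript of another actin. Whether any of these probes, such as that of *Acta2* at base 335, also reads another actin was not tested.

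The knocked down gene *Ppp2r5d* read 4701 for siRNA-NC and 676 for siRNA-*Ppp2r5d*, 6.08-fold lower after scaling in the culture labelled as its knockdown. Of 59305 non-control spots, 35544 were well above background for siRNA-NC and 35174 for siRNA-*Ppp2r5d*, and 0 were saturated. Intensities below are the background-corrected signals of the scanner in its own units, not scaled between arrays. Fold changes were taken after scaling each array to its 75th percentile (593 for siRNA-NC, 519 for siRNA-*Ppp2r5d*), and are siRNA-*Ppp2r5d* minus siRNA-NC on the log2 scale. A probe with equal scaled signals therefore shows a lower intensity on the siRNA-*Ppp2r5d* array. Of all 21667 genes with a value, 233 (1.08%) were at least 2-fold higher and 316 (1.46%) were at least 2-fold lower. Over genes measured on both arrays the median was 0.026, and 54.2% of them were higher. Of the genes past 2-fold, 57.6% were lower, against 82.3% with scaling to spike-in probes, which took the median of all genes to -0.19, and 40.2% with another background correction (normexp).

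Each of the 10 genes had 1 or more probes measured on both arrays, 20 of the 27 probes in all. A further 4 probes were well above background on 1 array only and gave a bound, and 3 probes on neither. By the mean over probes measured on both arrays, 6 genes were higher and 4 lower, with a median of 0.13. One of the 10 was at least 2-fold higher, beside 1.08% of all genes, and 0 were at least 2-fold lower, beside 1.46%. Since the group was chosen for its higher members, nothing can be read from these counts.

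**Figure D1:**
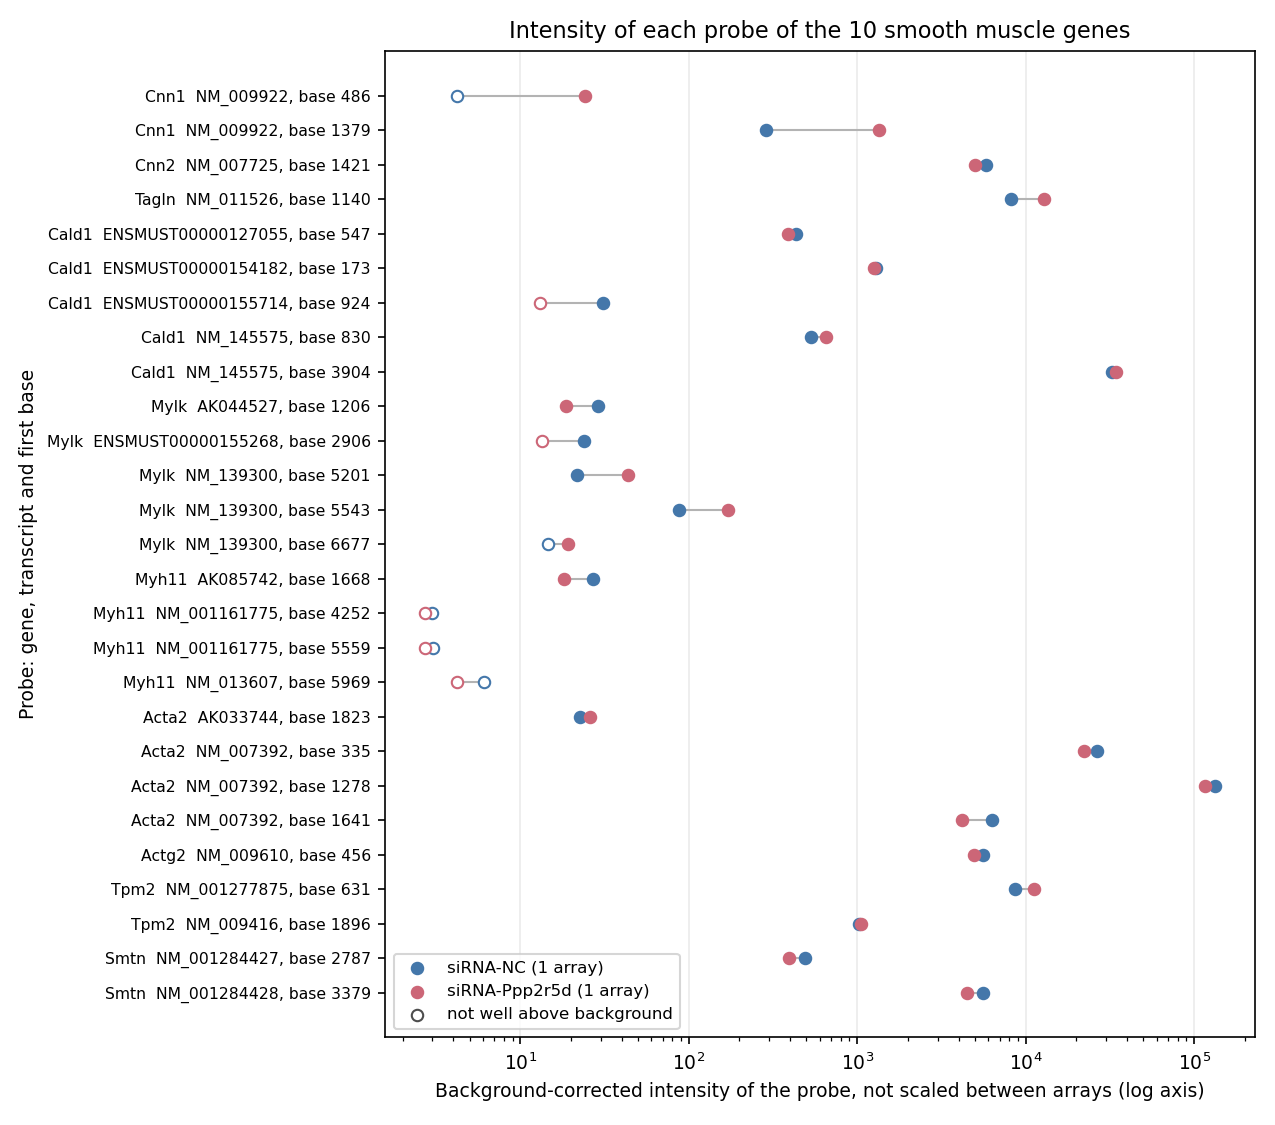
Intensity of each of the 27 probes for siRNA-NC (blue) and siRNA-*Ppp2r5d* (red), on a log axis, with open circles for signals not well above background. Red lies clearly to the right of blue for both *Cnn1* probes, *Tagln* and the *Mylk* probes at bases 5201 and 5543, and the 3 *Myh11* probes of RefSeq transcripts are open on both arrays.

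Among the calponins, the *Cnn1* probe at base 1379 read 288 for siRNA-NC and 1341 for siRNA-*Ppp2r5d*. This is a log2 fold change of 2.41, with an error of 0.20 by the scanner software's own estimate for the spots, which leaves out the spread between cultures. Calponin 1, the product of *Cnn1*, binds actin and calmodulin and slows the myosin ATPase. The second *Cnn1* probe, at base 486, had 4.23 for siRNA-NC, not well above background, and 24.3 for siRNA-*Ppp2r5d*. With siRNA-NC set to the lowest signal that was well above background on its array, 14.9, this probe was at least 1.86-fold higher. This probe was above background only through the siRNA-*Ppp2r5d* array, so its direction was fixed, and it adds nothing to the value of the first. Of the 20350 genes measured on both arrays, 9 had a larger log2 fold change than *Cnn1*. Its paralog *Cnn2*, a calponin also found outside smooth muscle, had 5806 for siRNA-NC and 5036 for siRNA-*Ppp2r5d*, a log2 fold change of -0.012. The third calponin, *Cnn3*, had log2 fold changes of 0.11 and 0.13 at its 2 probes, and a mean of -0.092 with spike-in scaling. Of the 3 calponin genes, *Cnn1* was the one past 2-fold.

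*Tagln* encodes transgelin, also called SM22 alpha, an actin-bundling protein widely used as an early smooth muscle marker. Its single probe had 8174 for siRNA-NC and 12887 for siRNA-*Ppp2r5d*, a log2 fold change of 0.85 with a software error of 0.20, or 1.80-fold. This lies under the 2-fold threshold, and 1.39% of genes measured on both arrays had a larger value. The related gene *Tagln2*, expressed in many cell types, was lower at both of its probes, with log2 fold changes of -0.56 and -0.39. *Tagln* and *Tagln2* therefore lay on opposite sides of 0.

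*Mylk* was read by 5 probes that did not move together. The probe at base 5543 of NM_139300 had 87.5 for siRNA-NC and 170 for siRNA-*Ppp2r5d*, a log2 fold change of 1.15 with a software error of 0.21. The probe at base 5201 had 21.9 and 43.6, a log2 fold change of 1.19 with an error of 0.30. The third probe of this transcript, at base 6677, had 14.6 for siRNA-NC, not well above background, and 19.1 for siRNA-*Ppp2r5d*, which gave a log2 fold change of at least 0.55. The last of these was above background only through the siRNA-*Ppp2r5d* array, so its direction was fixed. NM_139300 is the RefSeq transcript that encodes the kinase, although the probe at base 5543 cannot tell it from the transcript of telokin.

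The other 2 *Mylk* probes were lower. The probe of the clone AK044527 had 29.0 for siRNA-NC and 18.8 for siRNA-*Ppp2r5d*, a log2 fold change of -0.43 with an error of 0.33. The probe of ENSMUST00000155268 had 24.0 for siRNA-NC and 13.5, not well above background, for siRNA-*Ppp2r5d*, a log2 fold change of -0.64 or lower whose direction was fixed in the same way. Averaged over the 3 probes measured on both arrays, *Mylk* had a log2 fold change of 0.64, a value that none of its probes had. It was past 2-fold when the probe with the highest mean signal stood for the gene (1.15) and under it in the other 10 of 11 ways of processing, with a lowest value of 0.37.

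**Figure D2:**
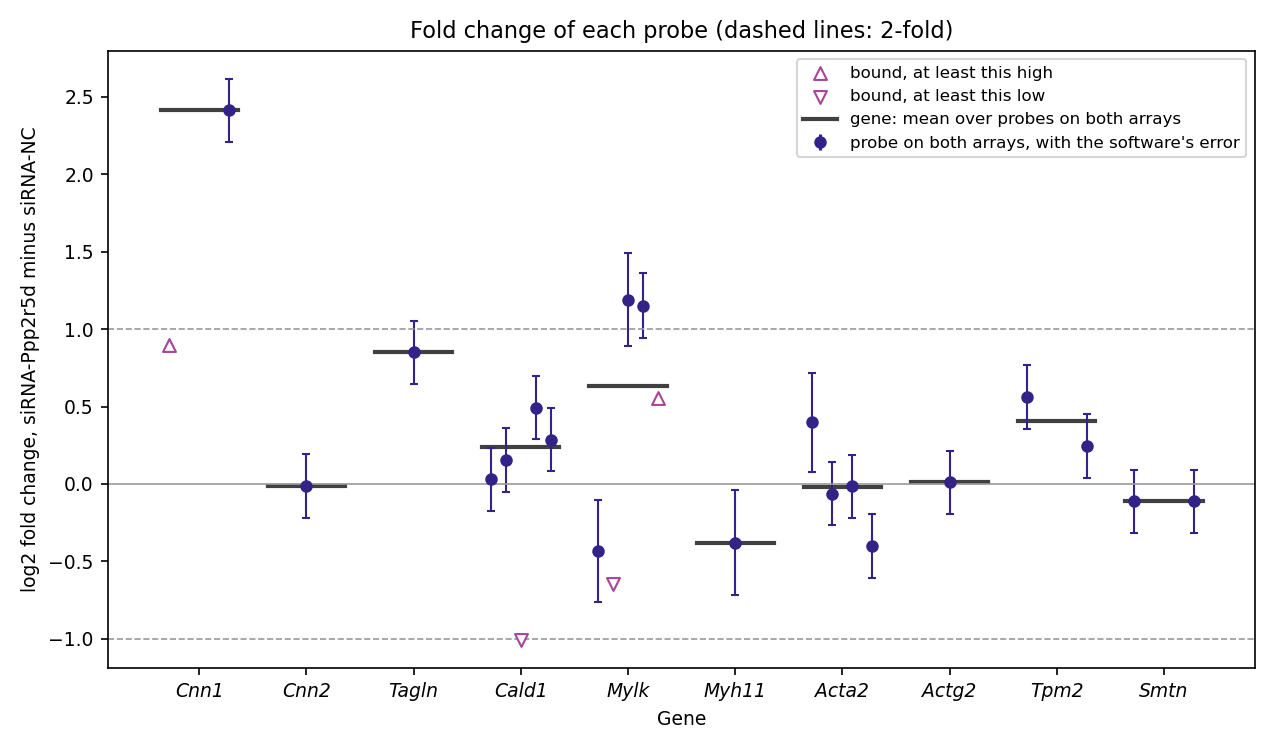
Log2 fold change of each probe measured on both arrays (points, with the scanner software's error for the spots), bounds for probes on 1 array (triangles) and the mean per gene (bars). *Cnn1* lies at 2.41, the *Mylk* probes lie from -0.43 to 1.19, and the probes of *Acta2* lie on both sides of 0.

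The actins of smooth muscle were nearly level. *Acta2*, whose product alpha-smooth muscle actin defines myofibroblasts, read 133436 at base 1278 for siRNA-NC and 115480 for siRNA-*Ppp2r5d*, a log2 fold change of -0.016. At base 335 it had 26508 and 22213, a log2 fold change of -0.062, and at base 1641 it had 6313 and 4187, a log2 fold change of -0.40. The probe of the clone AK033744 was dim, with 22.6 and 26.0, and had a log2 fold change of 0.40. The probes of *Acta2* therefore lay on both sides of 0, while its brightest lay within the software error of 0.20. *Actg2*, the gamma actin of visceral smooth muscle, had 5609 for siRNA-NC and 4943 for siRNA-*Ppp2r5d*, a log2 fold change of 0.010.

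*Myh11* is a specific marker of differentiated smooth muscle. Its probe at base 5969 of NM_013607 had 6.08 for siRNA-NC and 4.22 for siRNA-*Ppp2r5d*, and neither signal was well above background. Its probes at bases 4252 and 5559 of NM_001161775 had 2.98 and 3.05 for siRNA-NC and 2.74 and 2.71 for siRNA-*Ppp2r5d*, again not well above background. Only the probe of the clone AK085742 was, with 27.1 and 18.2, a log2 fold change of -0.38 with a software error of 0.34. Smooth muscle myosin heavy chain was therefore not detectable on either array at the probes of its RefSeq transcripts, beside *Acta2*, *Tagln* and *Actg2* signals that were well above background on both.

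Of the proteins that bind the actin filament, tropomyosin was higher at both probes. *Tpm2* had 8628 for siRNA-NC and 11145 for siRNA-*Ppp2r5d* at base 631 of NM_001277875, a log2 fold change of 0.56, and 1019 and 1057 at base 1896 of NM_009416, a log2 fold change of 0.25. These probes were made for different transcripts of *Tpm2*, and their errors of 0.20 each overlap. Its paralog *Tpm1* had a mean of -0.10 over 4 probes that lay from -0.32 to 0.20.

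*Cald1* encodes caldesmon, which holds back the actin-activated myosin ATPase and has a long form in smooth muscle and a short form in other cells. Its brightest probe, at base 3904 of NM_145575, had 32343 for siRNA-NC and 34505 for siRNA-*Ppp2r5d*, a log2 fold change of 0.29. The 4 probes measured on both arrays were all higher, from 0.030 to 0.49, with a mean of 0.24. The fifth, of ENSMUST00000155714, had 30.9 for siRNA-NC and 13.2, not well above background, for siRNA-*Ppp2r5d*, a log2 fold change of -1.01 or lower. This probe was above background only through the siRNA-NC array, so its direction was fixed. *Smtn*, the gene of smoothelin, had 5569 and 4513 at the first probe and 489 and 396 at the second, with log2 fold changes of -0.11 at both. These genes thus stayed within 0.5 of 0 by their means, as did 88.8% of all genes measured on both arrays.

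**Figure D3:**
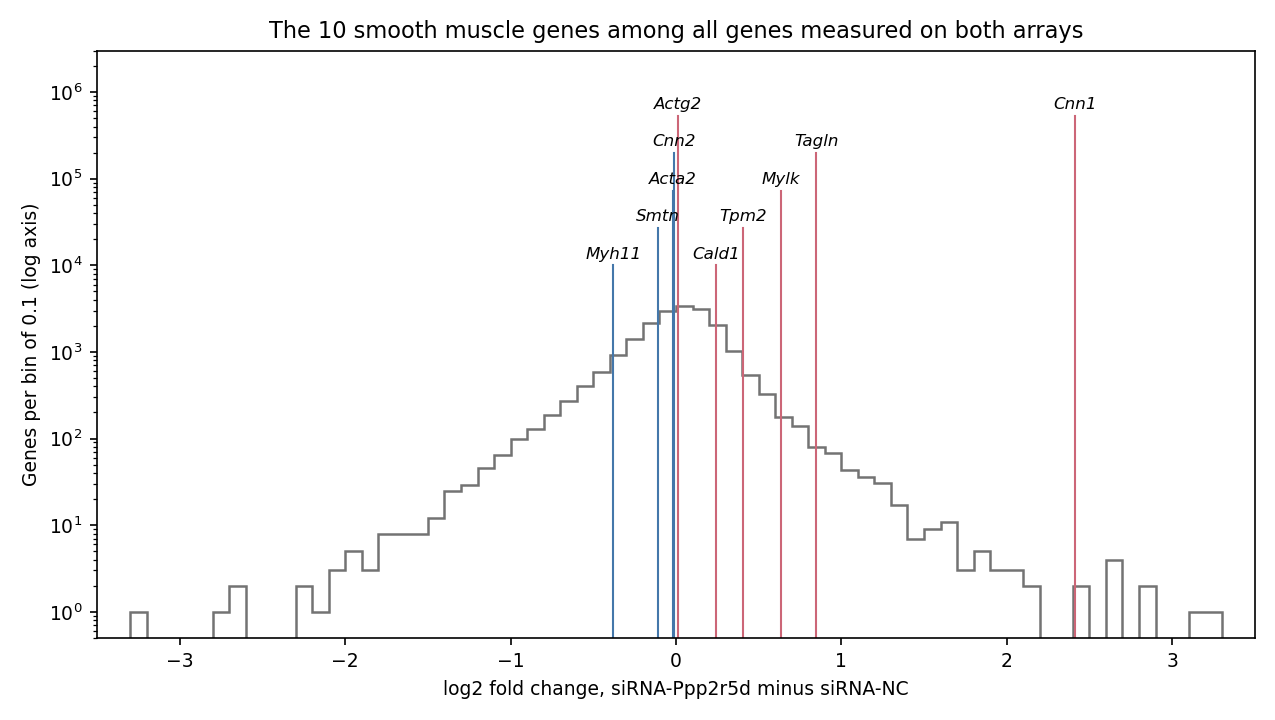
Log2 fold changes of the 10 genes (vertical lines, red above 0 and blue below) over the number of genes per bin of 0.1 among the 20350 genes measured on both arrays, on a log axis. *Cnn1* at 2.41 and *Tagln* at 0.85 lie in the upper tail, and the genes other than these and *Mylk* lie within 0.5 of 0.

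The SD of the log2 fold changes was 0.80 over the 10 genes and 0.35 over all genes measured on both arrays, and the first includes *Cnn1*, which was selected for its value. For 5 genes several probes were measured on both arrays, and in 3 of them (*Cald1*, *Smtn* and *Tpm2*) all of these lay on 1 side of 0. In *Mylk* and *Acta2* they did not.

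The pathway around these genes was described by 7 lists. In lists this short, 0 or 1 gene past 2-fold is no result about the list. Among 25 regulators of smooth muscle genes, 23 were measured on both arrays, with 10 higher, 13 lower and a median of -0.022. *Srf* itself had 3563 for siRNA-NC and 2661 for siRNA-*Ppp2r5d*, a log2 fold change of -0.23. The MRTF genes *Mkl1* and *Mkl2* had means of -0.034 over 2 probes and -0.17 over 4 probes. *Myocd*, the gene of myocardin, had 3.01 and 2.76, not well above background on either array. In this list 1 gene was past 2-fold on the higher side and 0 on the lower, beside 1.08% and 1.46% of all genes. This gene, *Heyl*, a transcriptional repressor downstream of Notch, had 49.7 for siRNA-NC and 177 for siRNA-*Ppp2r5d* at the 1 of its 2 probes measured on both arrays, a log2 fold change of 2.02. With its second, dim probe averaged in, this value was 1.04. With no filter on dim probes, or a filter on 1 array, 1 gene of the list, *Hey2*, was at least 2-fold lower.

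Among 28 genes that phosphorylate or dephosphorylate the myosin light chain or act through RhoA, 26 were measured on both arrays, with 15 higher, 11 lower and a median of 0.049. *Myl9*, the regulatory light chain on which the kinase acts, had 6634 for siRNA-NC and 6977 for siRNA-*Ppp2r5d*, a log2 fold change of 0.27. *Ppp1r12a*, which targets the opposing phosphatase to myosin, had a mean of -0.028. In this list 0 genes were past 2-fold on the higher side and 1 on the lower, beside 1.08% and 1.46% of all genes. This was *Mylk3*, the cardiac member of the kinase family, with 95.1 for siRNA-NC and 28.3 for siRNA-*Ppp2r5d* at its brighter probe and log2 fold changes of -1.72 and -1.56 at the 2 probes measured on both arrays. With normexp correction its mean was -0.62. The means of *Mylk* and *Mylk3* thus lay on opposite sides of 0.

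The list of 30 other smooth muscle contractile and cytoskeletal genes also held some genes of other kinds, such as *Ntf3*. Of these 30, 25 were measured on both arrays, with 16 higher, 9 lower and a median of 0.045. *Itga8*, an integrin chain of smooth muscle and mesenchymal cells, had 17.8 for siRNA-NC and 57.5 for siRNA-*Ppp2r5d*, a log2 fold change of 1.89, and *Ntf3*, a neurotrophin, had 71.1 and 27.6, a log2 fold change of -1.17. These were the only genes of the list past 2-fold, 1 in each direction, beside 1.08% of all genes higher and 1.46% lower. Neither was past it with normexp correction, where they had 0.81 and -0.41. With no filter on dim probes *Itga8* had 0.69. *Lmod1*, a smooth muscle leiomodin, was not well above background on either array.

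Among 18 paralogs of the members, 15 were measured on both arrays, with 7 higher, 8 lower and a median of -0.019. *Actb*, the beta actin of all cells, had a log2 fold change of 0.054, which was -0.10 with quantile normalization and -0.16 with spike-in scaling. *Actc1*, the cardiac actin, had -0.098. *Mylk3* was again the only gene past 2-fold, on the lower side, beside 1.46% of all genes. With no filter on dim probes *Tagln3* was at least 2-fold lower too. The myofibroblast list had 28 of its 30 genes measured on both arrays, with 13 higher, 15 lower and a median of -0.042. In it 0 genes were past 2-fold in either direction, beside 1.08% of all genes higher and 1.46% lower. With spike-in scaling 3 genes of this list, *Comp*, *Cthrc1* and *Ltbp2*, were at least 2-fold lower, beside 627 of all 21547 genes. *Postn*, a matrix protein of activated fibroblasts, had a mean of 0.12 over probes that lay from -0.19 to 0.31, and *Vim*, an intermediate filament gene of mesenchymal cells, had 0.17. With spike-in scaling these values were -0.090 and -0.037.

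Of 27 cytoskeletal targets of MRTF and SRF, all were measured on both arrays, with 15 higher, 12 lower and a median of 0.0085. Past 2-fold were 0 of them, beside 1.08% of all genes higher and 1.46% lower. Of 12 immediate early targets of SRF, 11 were measured on both arrays, with 5 higher, 6 lower and a median of -0.16. Past 2-fold were again 0, beside the same shares. With spike-in scaling 1 immediate early target, *Fosb*, was at least 2-fold lower, and with no filter on dim probes 1, *Egr4*, was. The 7 lists share some genes with each other, and their medians lay from -0.16 to 0.049, beside 0.026 for all genes. All 7 were below 0 with spike-in scaling, from -0.37 to -0.16, beside -0.19 for all genes. *Cnn1*, *Heyl* and *Itga8* were the only genes of the members and lists that were at least 2-fold higher.

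**Figure D4:**
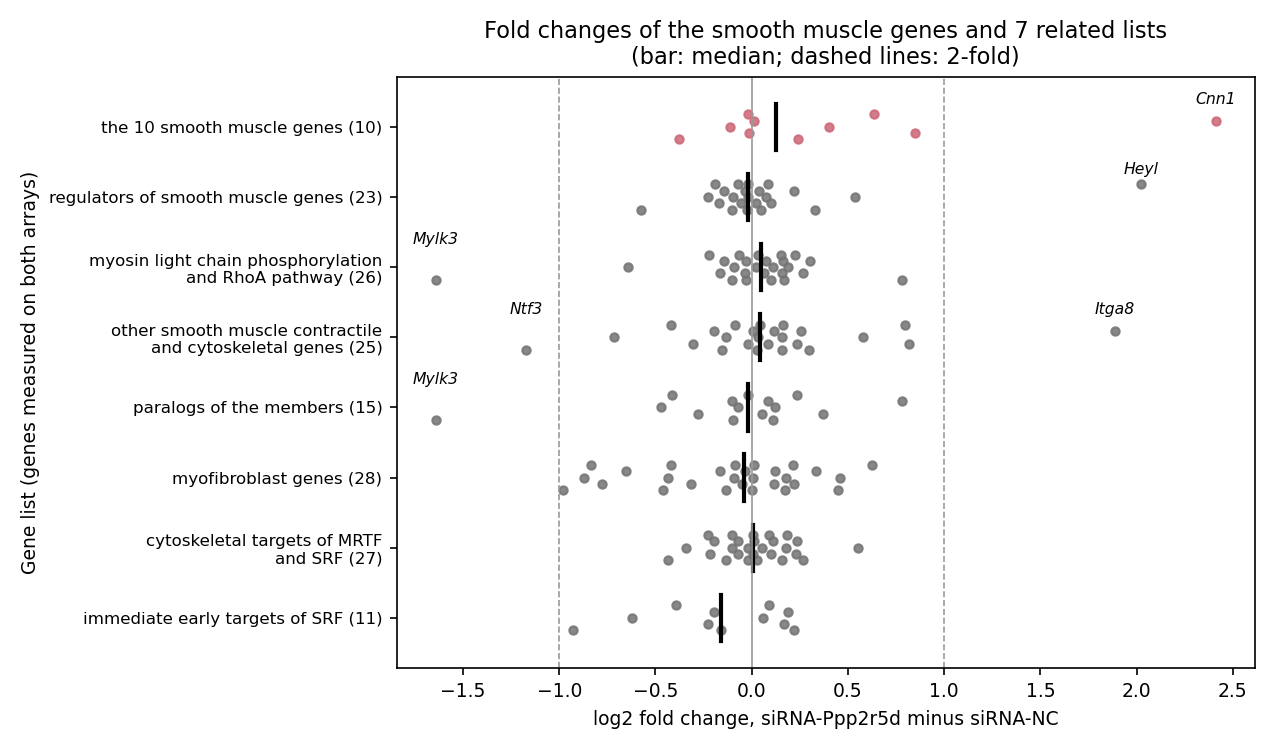
Log2 fold changes of the 10 smooth muscle genes (red) and of 7 related lists (grey), 1 point per gene measured on both arrays, with the median as a bar and 2-fold as dashed lines. The medians of the 7 lists lie from -0.16 to 0.049, and *Cnn1*, *Heyl*, *Itga8*, *Mylk3* and *Ntf3* lie past 2-fold.

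The CArG box is CC, then 6 bases of A or T, then GG, and reads the same on both strands. It was searched in promoter windows of 300 bases, from 250 bases before to 50 bases after the RefSeq start site, of build GRCm38.p6. The table held 8 windows of 7 members, *Acta2*, *Cald1* with 2 windows, *Cnn1*, *Cnn2*, *Mylk*, *Smtn* and *Tpm2*. The box was present in 1 of these 8 windows, that of *Cnn2*, and in 1.63% of all 32851 windows. A box with 1 of its 6 middle bases not A or T was counted as well, and boxes of either kind were present in 2 of the 8 windows, those of *Cnn2* and *Acta2*, and in 9.98% of all windows. The 50 bases around each are shown, with the box in capitals.
Cnn2, chr10:79988524-79988573, plus strand: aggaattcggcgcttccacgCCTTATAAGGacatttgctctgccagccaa
Acta2, farther box, chr19:34255428-34255477, minus strand: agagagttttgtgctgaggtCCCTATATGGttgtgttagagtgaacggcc
Acta2, nearer box, chr19:34255378-34255427, minus strand: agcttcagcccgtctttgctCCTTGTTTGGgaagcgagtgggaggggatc
The *Cnn2* box lies 56 to 47 bases before the start site, and those of *Acta2* lie 84 to 75 and 34 to 25 bases before the start site of its window. That *Acta2* start site and both boxes lie inside the RefSeq span of the gene, chr19:34240336-34255585, and not at its end. *Tagln*, *Actg2* and *Myh11* were not searched. *Cnn2* and *Acta2*, whose windows among these 7 members held a box of either kind, had log2 fold changes of -0.012 and -0.020. The windows of *Cnn1* and *Mylk* held no match, which says only that these letters were not in these 300 bases.

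In a bulk sample, fewer cells of a type and less RNA per cell cannot be told apart. Of 14 cardiomyocyte markers, 8 were well above background for siRNA-NC and 10 for siRNA-*Ppp2r5d*, and *Actn2*, *Myl2*, *Myl7* and *Pln* on neither array. Their summed intensity was 2747 and 3368, and 7 of the 8 measured on both arrays were higher, beside 54.2% of all genes. The median of these 8 was 0.45, beside 0.026 for all genes. For siRNA-NC their brightest probes ran from 16.6, near the lowest signal well above background (14.9), to 1110. Of 10 fibroblast markers, 8 were well above background on both arrays, with *Tcf21* and *Thy1* on neither. Of these 8, 3 were higher, beside 54.2% of all genes, and 5 were lower. Of the 3, 1 was at least 2-fold higher, beside 1.08% of all genes. Their summed intensity was 331039 and 326509. Of 7 smooth muscle markers, of which *Lmod1* alone is no member, all but *Lmod1* were measured on both arrays. Of those measured, 3 were higher and 3 lower, with a median of -0.0048. Their summed intensity was 153106 and 139185, most of it from *Acta2* (133436 and 115480). The summed intensities, here and below, take the brightest probe of each marker, also where it was not well above background. They are not scaled between arrays, and the siRNA-*Ppp2r5d* array was the dimmer at its 75th percentile (519 against 593).

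Of 6 pericyte markers, 3 were measured on both arrays, and *Rgs5*, *Kcnj8* and *Abcc9* on neither, with a summed intensity of 29971 and 31524. Of 6 endothelial markers, 1 was well above background for siRNA-NC and 2 for siRNA-*Ppp2r5d*, and *Cdh5*, *Kdr*, *Vwf* and *Emcn* on neither. Of 5 skeletal muscle markers on the array, 3 were well above background on both, with *Ckm* and *Pax7* on neither. Of 6 macrophage markers, 4 were measured on both arrays, and *Adgre1* and *C1qa* on neither. The part of the cell types in the values of *Cnn1*, *Tagln* and *Mylk* was not tested.

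**Figure D5:**
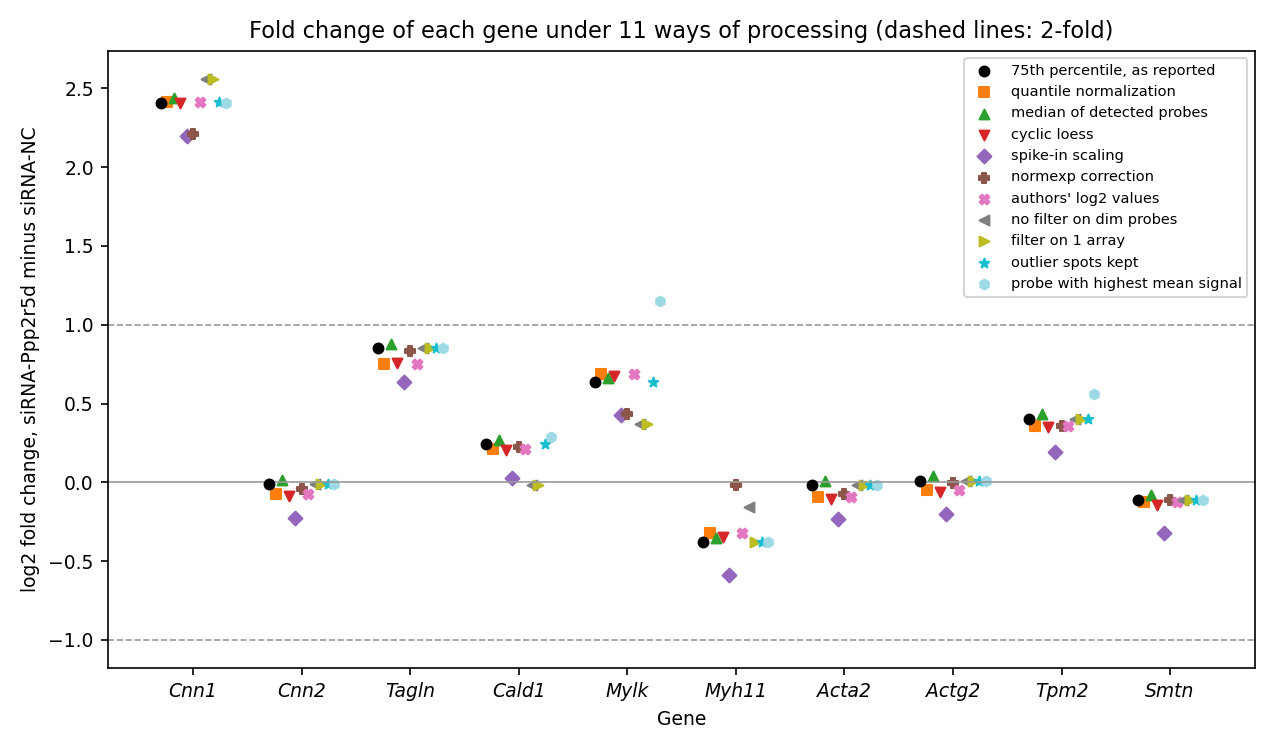
Log2 fold change of each of the 10 genes under 11 ways of processing the same 2 arrays, with 2-fold as dashed lines. *Cnn1* lies from 2.20 to 2.56 and *Tagln* from 0.64 to 0.88. *Smtn* and *Myh11* stay below 0, with *Myh11* as near to it as -0.017. *Cald1*, *Actg2*, *Cnn2* and *Acta2* lie on both sides of 0.

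Across 11 ways of processing, *Cnn1* was at least 2-fold higher in all 11, from 2.20 to 2.56. *Tagln* lay from 0.64 to 0.88, *Mylk* from 0.37 to 1.15 and *Tpm2* from 0.19 to 0.56, all above 0. *Smtn*, from -0.32 to -0.084, and *Myh11*, from -0.59 to -0.017, were below 0 in all 11. The only *Myh11* probe above background was dim. *Cnn2* and *Acta2* were above 0 in 1 of 11, *Actg2* in 6 of 11 and *Cald1* in 9 of 11, so the direction of these 4 genes depended on the processing.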

How the data were processed

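The study measured RNA of MCMs on 2 one-colour microarrays, 1 for siRNA-NC and 1 for siRNA-*Ppp2r5d* by the sample labels, which shared 1 slide and 1 scan. The authors deposited the intensity of every spot from Agilent Feature Extraction 10.7.1.1, background-corrected but not set on 1 scale across arrays. The authors' table of log2 values, whose normalization it does not state, differed from quantile normalized log2 intensities by a median of 1.4e-05 in absolute value over 56605 probes.

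Control spots and spots marked as outliers (126 for siRNA-NC, 95 for siRNA-*Ppp2r5d*) were left out. Values are log2 intensities, averaged over the spots of a probe, less the 75th percentile of non-control probes. A gene is the mean of its probes well above background on both arrays. This left out dim probes that were lower for *Mylk* and *Cald1*, and dim probes that were higher for *Mylk* and *Cnn1*. Where only 1 array was well above background, the other was set at its own signal or the lowest signal well above background (14.9 for siRNA-NC, 13.5 for siRNA-*Ppp2r5d*), whichever was higher, for a bound. Across 291 probes printed 10 times each, the SD of the log2 fold change over spots had a median of 0.039, an error of spots and not of cultures. Having 1 array per condition limits the precision of every value.

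The members and lists were chosen with earlier results of these data known. Named are the 10 members, *Ppp2r5d*, genes of each list past 2-fold, 15 regulators and relatives named whatever their value, and markers above background on neither array. Some of these are not reported here, and list genes past 2-fold under an alternative only were named after their values were seen. Alternatives were scaling by quantiles, by the median of detected probes, by cyclic loess and by spike-in probes, normexp correction (offset 50), the deposited log2 table, no filter or a filter on 1 array for dim probes, outlier spots kept, the brightest probe per gene, and thresholds of 1.5-fold and 4-fold. The steps were tested on simulated data. A comparison of protein sequences was planned and not run. Promoter sequences are those of RefSeq. The tools were limma 3.58.1 in R 4.3.3, and NumPy 2.4.6, pandas 2.3.3 and matplotlib 3.10.9 in Python 3.11.15.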

Additional observations from a re-analysis of the deposited data

How the results depend on the processing

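No paired analysis was possible because each condition had 1 array, and for the same reason no replicate could be left out. *Cnn1* was the 1 gene of the 10 at least 2-fold higher under each way of processing at that threshold, apart from the probe with the highest mean signal, where *Mylk* joined it and the number was 2. At 1.5-fold the number was 3, beside 838 of all 21667 genes, and at 4-fold it was 1, beside 29. The 3 genes at 1.5-fold were *Cnn1*, *Tagln* and *Mylk*, for which the group was chosen. The number at least 2-fold lower was 0 under every alternative run. The median log2 fold change of the 10 genes, 0.13, was 0.082 with quantile normalization and with the authors' log2 values, 0.071 with cyclic loess, -0.0011 with no filter on dim probes or with probes above background on 1 array, and -0.086 with spike-in scaling, which also took the median of all genes from 0.026 to -0.19. The median of the 10 genes less that of all genes was 0.0997, which spike-in scaling leaves as it is by construction. It was 0.067 with cyclic loess, 0.056 with normexp correction, -0.022 with probes above background on 1 array and -0.035 with no filter on dim probes. The total of genes with a value also depended on the setting. It was 37073 with no filter on dim probes and 21701 with probes above background on 1 array. Spike-in scaling left 21547 and normexp correction 21328, beside 21667 in the main setting and at both other thresholds. In the main setting, 233 genes lay past 2-fold on the higher side and 316 on the lower. These numbers were 135 and 627 with spike-in scaling, 67 and 45 with normexp correction, 957 and 1119 with no filter on dim probes, 404 and 619 with probes above background on 1 array, 838 and 1174 at 1.5-fold, and 29 and 26 at 4-fold. The cause of these differences was not tested beyond what the filters and thresholds fix by their own construction. Dim signals limit the values of *Myh11*, the second *Cnn1* probe and the *Mylk* probes other than that at base 5543, which had intensities of 43.6 or less.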
